A study of Mus musculus with 14 samples.

Results

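Transcript levels of 33 genes that build the sarcomere and its Z-discs were followed in the hearts, taken whole, of male C57BL/6 mice that were left untreated. The genes were named as a list of symbols by their place in the sarcomere. No measured value entered the rule, but the list was chosen with earlier results of these data known. Each gene was matched to its Ensembl identifier through GENCODE M21. All 33 were found among 55487 identifiers in the count table, and all 33 passed the filter on low counts that kept 15528 genes for testing. By role they were 4 thick filament genes, 7 thin filament genes, 3 genes of titin and the M-band, 14 Z-disc genes, 1 intermediate filament gene, 2 intercalated disc genes and 2 assembly factors. The 14 hearts came from knockout mice at 15 months (4 hearts), wild-type mice at 15 months (4 hearts), knockout mice at 2 months (3 hearts) and wild-type mice at 2 months (3 hearts). The knockout carries Myh6-Cre and Sqstm1 fl/fl, so that Cre, driven by the promoter of cardiac alpha-myosin, removes the gene for the autophagy adaptor p62 from cardiac muscle cells while the other cells of the heart keep it. The labels call the other hearts wildtype and name no Cre in them, and a group with Cre but no floxed allele was not analysed here. No member differed between knockout and wild-type hearts past the test at either age, whereas 15 members differed between 15 and 2 months when both genotypes were averaged, 10 of them higher and 5 lower at 15 months. In that fit 23.9% of all genes differed. With each library's trend of counts over exon length as a covariate, the count fell to 3 members, where 1.38% of all genes differed. With the replicate number as a block it was 4, where 8.79% of all genes differed.

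The sarcomere is the contractile unit of striated muscle. Myosin thick filaments slide along actin thin filaments, the troponin complex and tropomyosin make that sliding depend on calcium, and titin spans from the Z-disc to the M-band as a spring and ruler. Z-discs anchor the thin filaments of neighbouring sarcomeres and carry many scaffold and LIM-domain proteins, which are known in the heart for sensing stretch and for their links to inherited cardiomyopathy.

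Total counts ran between 20218992 and 30404416 per library, and mitochondrially encoded genes took 27.5% to 46.0% of them, the most in knockout replicate 1 at 15 months. Sqstm1 was at 14.6, 37.0, 16.2 and 17.6 CPM (read counts scaled for library depth with TMM factors) in knockout hearts at 15 months, against 208, 186, 238 and 173 CPM in wild-type hearts at 15 months. In knockout hearts at 2 months Sqstm1 had 15.2, 14.7 and 19.2 CPM, against 177, 139 and 169 CPM in wild-type hearts at 2 months, so every library matched its genotype label. The log2 fold change was −3.23 (SE 0.26) at 15 months and −3.30 (SE 0.31) at 2 months. Wild-type replicate 1 at 2 months stood apart by atrial transcripts: Myl7, the atrial light chain, was at 638 CPM there and at most at 58.1 CPM elsewhere. The ventricular light chain Myl2, a member, was between 4409 and 13793 CPM in all libraries, and 12 cardiac muscle cell markers outside the list summed to 24130 to 33989 CPM, so the hearts carried the markers of their labelled tissue. In whole hearts, fewer cells of a type and less RNA per cell cannot be told apart. Nothing in the labels says whether the hearts of a group were processed apart, so the p-values cover only the spread among these libraries, which may be technical.

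Together the 33 members took 5.45% to 11.4% of a library's counts. Titin (Ttn), the longest with 116825 bp of merged exons, took 0.886% to 5.82% by itself. To compare levels between genes, CPM was divided by the kilobases of merged exon, and the mean and SD over all 14 hearts are given. The highest level was that of Myl2, with 3945 ± 1396 CPM per kb (SD, n = 14), followed by cardiac alpha-actin (Actc1) with 3195 ± 546 CPM per kb, which lies within the spread of Myl2. Next came cardiac alpha-myosin heavy chain (Myh6) at 1781 CPM per kb and the ventricular essential light chain (Myl3) at 1739 CPM per kb. The troponins stood at 1503 CPM per kb for the inhibitory subunit Tnni3 and 1288 CPM per kb for the calcium-binding subunit Tnnc1. The tropomyosin-binding subunit Tnnt2 stood at 354 CPM per kb. Merged exons pool all annotated transcripts of a gene, and they were 7752 bp for Tnnt2, 2063 bp for Tnni3 and 1041 bp for Tnnc1. Before the division Tnnt2 was at 1330 to 3453 CPM, Tnni3 at 2066 to 3716 CPM and Tnnc1 at 697 to 2048 CPM. The order per kilobase thus depends on the annotated length.

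The filament genes thus filled the top of the order, and Z-disc genes filled most of the bottom. Among 14 Z-disc genes, the titin cap telethonin (Tcap) was highest at 811 CPM per kb and myopalladin (Mypn) lowest at 20.1 CPM per kb. Alpha-actinin (Actn2), which crosslinks actin at the Z-disc, was at 328 CPM per kb and desmin (Des), the intermediate filament that ties Z-discs together, at 335 CPM per kb. Per kilobase Ttn was at 200 CPM per kb, between leiomodin 2 (Lmod2, 215 CPM per kb), which lengthens thin filaments, and myomesin 1 (Myom1, 128 CPM per kb), which crosslinks myosin in the M-band. The Xin-repeat gene Xirp2 was at 108 CPM per kb and its relative Xirp1 at 28.7 CPM per kb, both at the intercalated disc. The myosin methyltransferase and chaperone factor Smyd1 was at 81.4 CPM per kb and the myosin chaperone Unc45b at 23.6 CPM per kb. Myh6 and its slow counterpart Myh7 are near-identical in places, as are Actc1 and skeletal alpha-actin (Acta1), and the treatment of reads mapping to several places is not given in the sources used here, so their split is uncertain. On the counts as deposited, Myh7 made 1.65% to 6.22% of the summed Myh6 and Myh7 CPM in knockout hearts and 0.951% to 4.87% in wild-type hearts at 15 months. At 2 months it made 0.862% to 1.95% in knockout hearts and 0.642% to 1.78% in wild-type hearts.

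**Figure D1:**
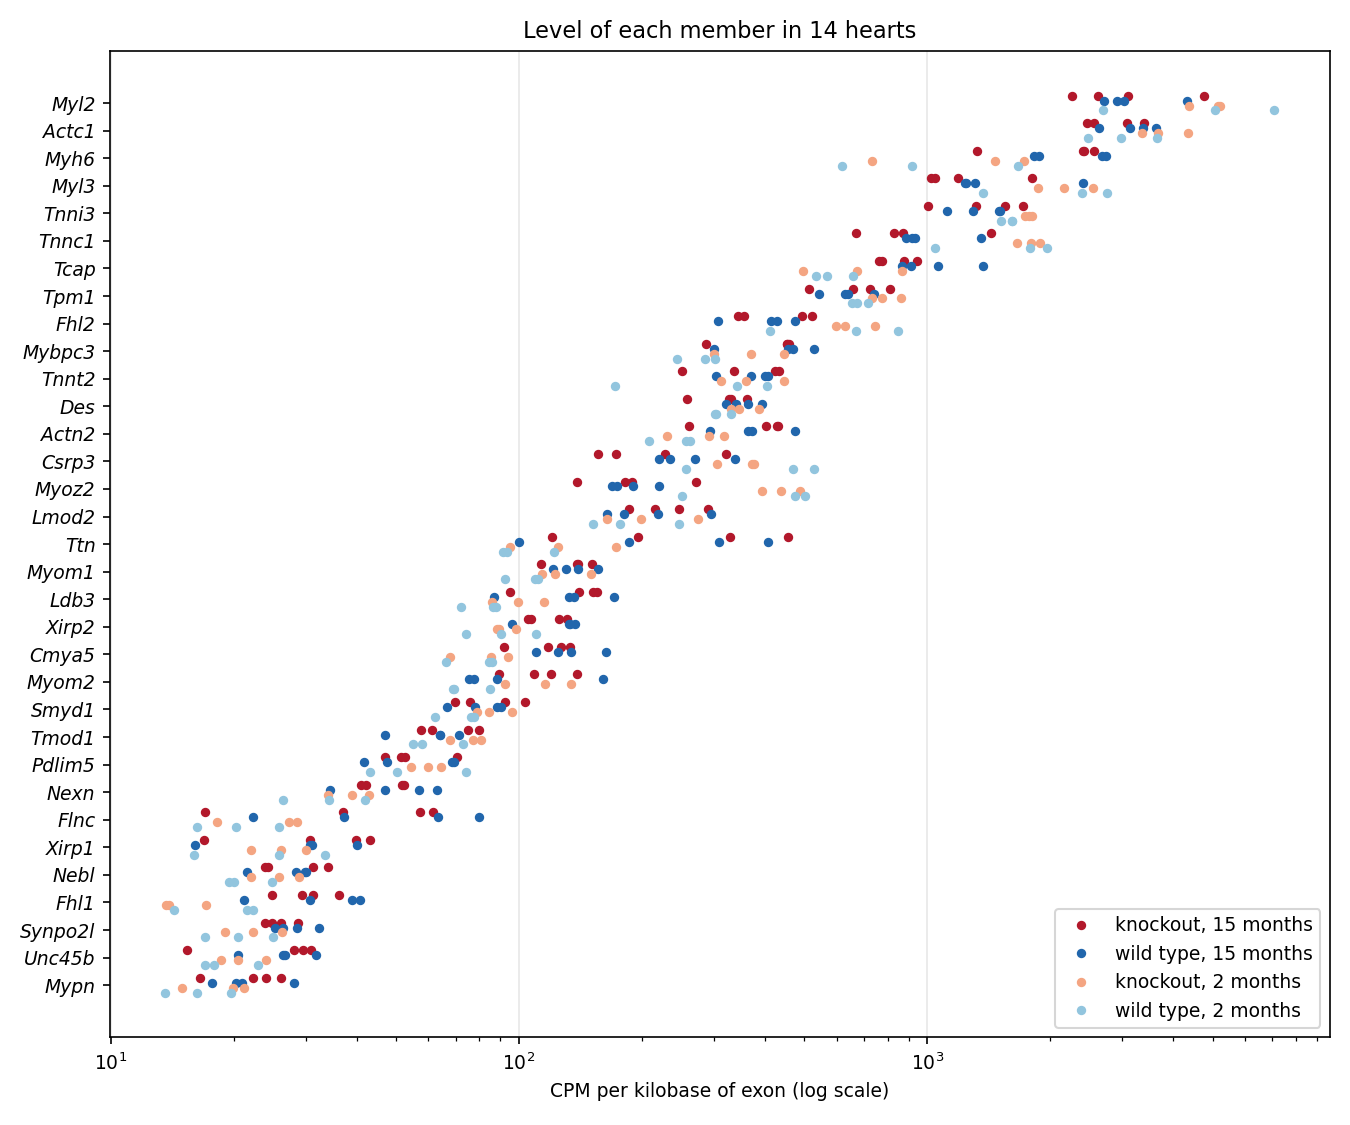
Level of each of the 33 genes in each of the 14 hearts, in CPM per kilobase of merged exon on a log axis, with 1 point per heart, coloured by genotype and age, and genes ordered by their mean. The order runs from Myl2 at a mean of 3945 to Mypn at 20.1 CPM per kb.

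Knockout and wild-type hearts were compared within each age, over both ages, and by how far the knockout effects of the 2 ages were apart. At 15 months, 0 of 33 members passed (edgeR quasi-likelihood test, p adjusted by Benjamini-Hochberg over all 15528 genes, threshold 0.05), where 0.00644% of all genes passed, which was Sqstm1 alone. DESeq2 and limma voom also called 0 members, and 0 members had an unadjusted p under 0.05, against 3.97% of all genes. Of the log2 fold changes, 14 were above 0 and 19 below, with a median of −0.03 for the members and 0.01 for all genes, of which 51.7% were above 0. No member had its genotypes apart, where 0.76% of all genes were wholly higher and 1.23% wholly lower in knockout hearts. All 4 thick filament genes were below 0 at this age, with Myh6 at −0.06, and 2 of 3 titin and M-band genes were above it, with Ttn at 0.14. Actn2 was at 0.02, Flnc at −0.23 and Xirp2 at −0.09, and the non-member Myh7 at 0.19. The members' values lay between −0.33 and 0.19, and a p that misses the threshold does not show that the levels were equal.

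The 6 members with the smallest p at 15 months were Tcap, Des, Csrp3, Myl3, Cmya5 and Tmod1, all with an adjusted p of 0.999 (edgeR quasi-likelihood test). Tcap was at 832, 720, 733 and 893 CPM in knockout hearts, against 1009, 1294, 866 and 823 CPM in wild-type hearts, a log2 fold change of −0.33 (SE 0.19). Des was at 970, 1224, 1357 and 1240 CPM in knockout hearts, against 1480, 1275, 1368 and 1207 CPM in wild-type hearts, a log2 fold change of −0.15 (SE 0.14). For both genes the lowest heart was a knockout heart and the highest a wild-type heart, but the groups overlapped. Muscle LIM protein (Csrp3), a Z-disc protein tied to stretch sensing, was at 859, 462, 416 and 610 CPM in knockout hearts and at 627, 904, 589 and 719 CPM in wild-type hearts, a log2 fold change of −0.27 (SE 0.25). Myl3 was at 3694, 2129, 2083 and 2427 CPM in knockout hearts and at 2547, 4914, 2677 and 2530 CPM in wild-type hearts, a log2 fold change of −0.29 (SE 0.27). Knockout replicate 1 and wild-type replicate 2 were the highest of their groups for both genes, and the remaining knockout hearts were below all wild-type hearts for Myl3. Myospryn (Cmya5), a large Z-disc scaffold, was at 1090, 1393, 1583 and 1504 CPM in knockout hearts and at 1938, 1585, 1303 and 1473 CPM in wild-type hearts, a log2 fold change of −0.18 (SE 0.17). Tropomodulin 1 (Tmod1), the cap of thin filament pointed ends, was at 227, 296, 241 and 316 CPM in knockout hearts and at 281, 186, 252 and 253 CPM in wild-type hearts, a log2 fold change of 0.15 (SE 0.16). Both genes overlapped widely between the genotypes, and 32.6% of the exon length of Tmod1 is shared with Tstd2 on the other strand, whose reads the deposited counts may not separate since the strand setting is not given in the sources used here.

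At 2 months, again 0 of 33 members passed (edgeR quasi-likelihood test, Benjamini-Hochberg adjusted), with 0.00644% of all genes called, again Sqstm1 alone. DESeq2 and limma voom called 0 members as well. With an unadjusted p under 0.05 there was 1 member, Myom2, against 3.18% of all genes. The signs leaned one way at this age: 30 of 33 members had a log2 fold change above 0, against 49.7% of all genes, with a median of 0.18 for the members and −0.00 for all genes. This is a description of 3 knockout and 3 wild-type hearts, and it carries no test. Averaged over the members, log2 CPM relative to each gene's mean over all hearts was −0.15, 0.12 and 0.08 in knockout hearts. In wild-type hearts it was −0.19, −0.24 and −0.07, so knockout replicate 1 lay below wild-type replicate 3 and the genotypes overlapped. Some marker lists were apart between the genotypes at the same age: 12 macrophage genes summed to 267 to 364 CPM in knockout hearts and 404 to 456 CPM in wild-type hearts, and the 5 ventricular markers outside the list to 1428 to 1547 CPM in knockout hearts and 1068 to 1315 CPM in wild-type hearts. Most of the ventricular sum was Mylk3, at 554 to 617 CPM in knockout and 408 to 479 CPM in wild-type hearts, and Lbh. Lbh overlapped (498 to 608 against 338 to 529 CPM), as did Smpx (289 to 429 against 229 to 483 CPM). The largest part of the macrophage sum was Lyz2, which also overlapped (130 to 205 against 197 to 276 CPM). The sums therefore do not stand for each gene, and the part of these lists in the members' signs was not tested. The 3 members below 0 were Fhl1, Csrp3 (−0.25) and Myl2 (−0.01). By role, all 7 thin filament genes were above 0 with a median of 0.21, as were all 3 of titin and the M-band with a median of 0.35 and 12 of 14 Z-disc genes with a median of 0.14. Myh6 was at 0.29, Ttn at 0.35, Actn2 at 0.21, Des at 0.18, Flnc at 0.25, Xirp2 at 0.01 and the non-member Myh7 at 0.52. In 5 members (15.2%) every knockout heart was above every wild-type heart, against 4.43% of all genes, and these were Tnni3, Tpm1, Myom1, Myom2 and Smyd1. In 0 members was every knockout heart below, against 3.72% of all genes.

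Myom2, the M-band crosslinker of fast and cardiac muscle, was at 820, 1185 and 1027 CPM in knockout hearts at 2 months, against 752, 612 and 614 CPM in wild-type hearts, which gave a log2 fold change of 0.62 (SE 0.27, adjusted p = 0.9997, edgeR quasi-likelihood test). Its relative Myom1 was at 1194, 1568 and 1284 CPM in knockout hearts, against 1165, 965 and 1142 CPM in wild-type hearts, a log2 fold change of 0.31 (SE 0.17). In both myomesin genes the groups did not overlap, by a narrow margin in Myom1. Cardiac myosin-binding protein C (Mybpc3), a brake on crossbridges along the thick filament, was at 1251, 1859 and 1540 CPM in knockout hearts, against 1257, 1017 and 1186 CPM in wild-type hearts, a log2 fold change of 0.43 (SE 0.24). Actc1 was at 5439, 7028 and 5949 CPM in knockout hearts, against 4810, 4008 and 5890 CPM in wild-type hearts, a log2 fold change of 0.32 (SE 0.20). Only the lowest knockout heart and the highest wild-type heart overlapped in Mybpc3 and Actc1. Tmod1 was at 267, 318 and 304 CPM in knockout hearts, against 287, 217 and 229 CPM in wild-type hearts, a log2 fold change of 0.28 (SE 0.18). The LIM-only gene Fhl1, which binds titin, went the other way, at 50.9, 51.5 and 63.6 CPM in knockout hearts, against 82.8, 53.0 and 80.1 CPM in wild-type hearts, a log2 fold change of −0.38 (SE 0.23). For Fhl1 wild-type replicate 2 lay between the knockout hearts, while the other two wild-type hearts were above them. Without wild-type replicate 1, the heart with atrial transcripts, Myom2 gave a log2 fold change of 0.73, Fhl1 gave −0.26, and still 0 members passed.

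Over both ages 0 of 33 members passed (edgeR quasi-likelihood test, Benjamini-Hochberg adjusted), with 0.00644% of all genes called and 0 members by DESeq2 or limma voom. Myom2 alone had an unadjusted p under 0.05, with a log2 fold change of 0.40 (SE 0.18), against 3.26% of all genes. Above 0 were 25 members, against 50.3% of all genes. The next smallest p-values belonged to Tmod1 (log2 fold change 0.22), Fhl1 (−0.25), Smyd1 (0.17), Csrp3 (−0.26) and Myom1 (0.15). Smyd1 was at 316, 470, 344 and 421 CPM in knockout hearts at 15 months, against 402, 304, 410 and 354 CPM in wild-type hearts at 15 months. At 2 months Smyd1 was at 358, 437 and 383 CPM in knockout hearts, against 347, 284 and 353 CPM in wild-type hearts. Its genotypes were thus apart at 2 months, by a narrow margin, and overlapped at 15 months.

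The knockout effect at 15 months minus that at 2 months was below 0 for 30 of 33 members and above 0 for 3, while 50.7% of all genes were above 0. Its median was −0.21 for the members and 0.01 for all genes. The difference subtracts the effects at 2 months, of which 30 of 33 were above 0. Its signs are therefore not a result separate from the lean at 2 months. The test of this difference passed for 0 members and for 0.0% of all genes (edgeR quasi-likelihood test, Benjamini-Hochberg adjusted), and at an unadjusted p under 0.05 for 0 members and 3.72% of all genes. DESeq2 and limma voom also called 0 members. The smallest p-values belonged to Tcap, with a difference of −0.55 on the log2 scale (SE 0.28), Actc1 with −0.47 (SE 0.27), Mybpc3 with −0.51 (SE 0.31), Des with −0.34 (SE 0.21), Myom1 with −0.32 (SE 0.22) and Myom2 with −0.43 (SE 0.35). For Tcap, Actc1, Mybpc3, Des and Myom1 the knockout effect was above 0 at 2 months and below 0 at 15 months. The effects at the 2 ages come from separate hearts, so neither shares a control with the other, but their difference holds both.

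**Figure D2:**
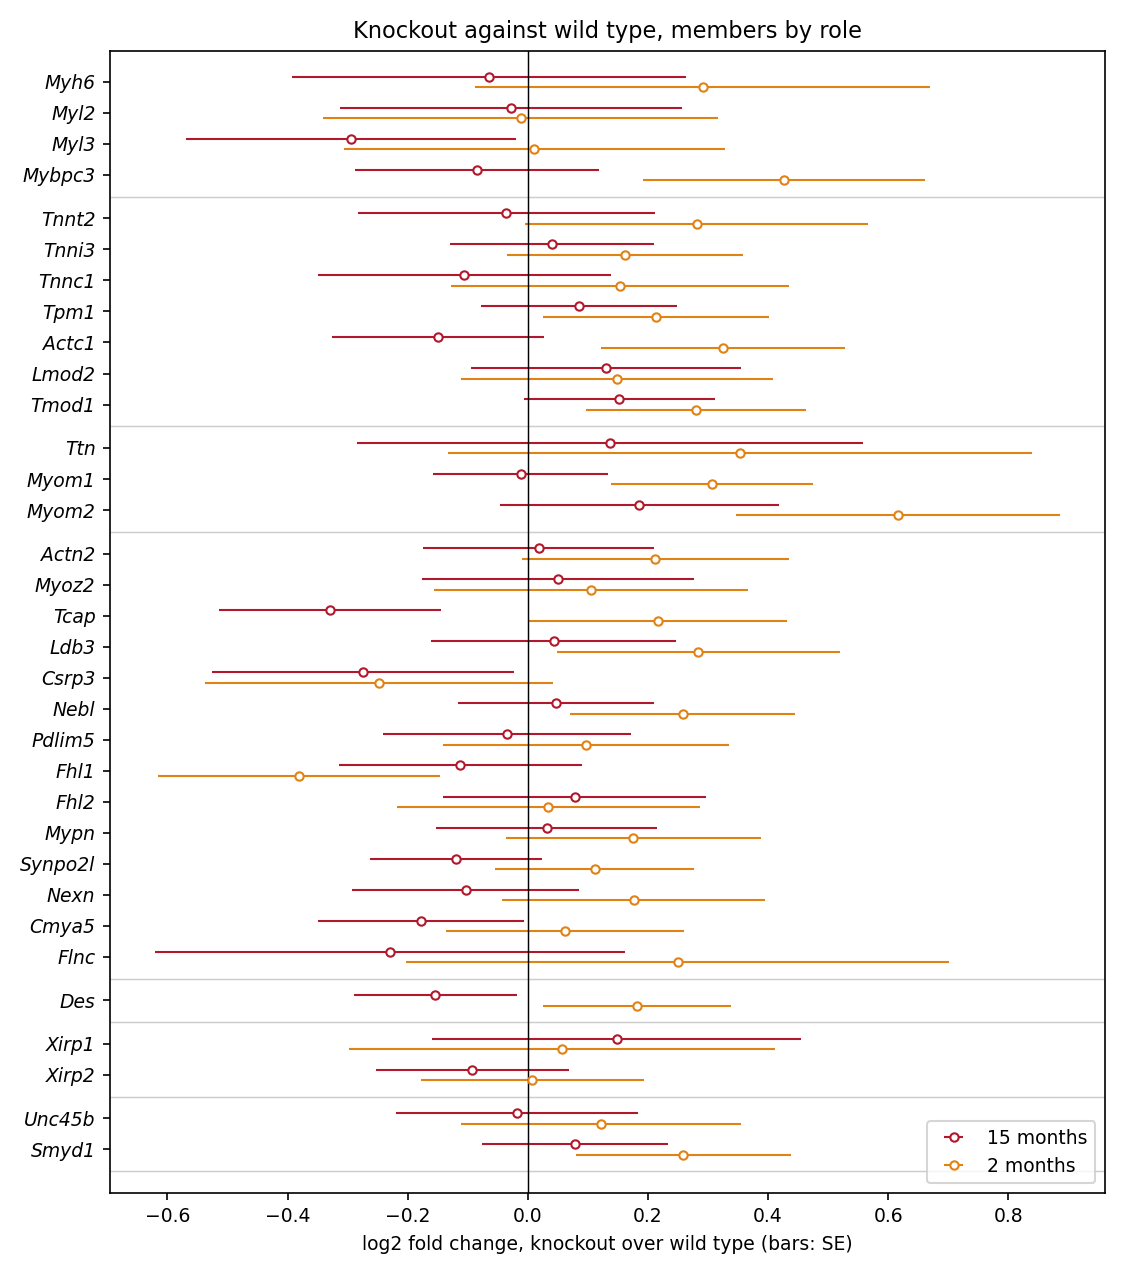
Log2 fold change of each gene, knockout over wild-type hearts, at 15 months (red) and at 2 months (orange), with bars of 1 SE from the edgeR fit and genes grouped by role between the grey lines. At 2 months 30 of 33 points lie right of 0 and at 15 months 14 of 33, and none passed the test.

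Age was compared within each genotype. In wild-type hearts, 1 of 33 members passed between 15 and 2 months (edgeR quasi-likelihood test, Benjamini-Hochberg adjusted), with 1.04% of all genes called. In knockout hearts 2 of 33 members passed, with 2.25% of all genes called. The single member called in both genotypes was Myoz2, which encodes calsarcin-1, a Z-disc protein that binds alpha-actinin and the phosphatase calcineurin. Fhl1 was the other member called in knockout hearts. Members with an unadjusted p under 0.05 numbered 17 in wild-type hearts, against 23.8% of all genes, and 8 in knockout hearts, against 26.7% of all genes. By role, the Z-disc genes had a median log2 fold change of 0.26 in knockout hearts and 0.50 in wild-type hearts, and the thin filament genes −0.22 in knockout hearts and −0.01 in wild-type hearts. Myh6 had a log2 fold change of 0.74 in knockout hearts and 1.09 in wild-type hearts, and Ttn 1.08 in knockout hearts and 1.29 in wild-type hearts, without passing in either. Above 0 were 19 members in knockout hearts, against 50.6% of all genes, and 24 members in wild-type hearts, against 48.3% of all genes. In knockout hearts the ages did not overlap for 2 members that were higher at 15 months (Fhl1 and Xirp2), against 8.83% of all genes, and 5 that were lower (Myoz2, Myl3, Tnnc1, Tnni3 and Fhl2), against 11.3% of all genes. In wild-type hearts they did not overlap for 6 that were higher (Myh6, Myom1, Actn2, Tcap, Synpo2l and Cmya5), against 8.6% of all genes, and 2 that were lower (Myoz2 and Tnni3), against 7.57% of all genes.

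Myoz2 was at 927, 621, 474 and 649 CPM in knockout hearts at 15 months, against 1664, 1347 and 1501 CPM in knockout hearts at 2 months. In wild-type hearts Myoz2 was at 578, 753, 652 and 596 CPM at 15 months, against 860, 1713 and 1623 CPM at 2 months. Within each genotype every heart at 15 months was below every heart at 2 months, with wild-type replicate 1 the lowest of the young hearts. Myoz2 fell by 1.17 on the log2 scale in knockout hearts (SE 0.24, adjusted p = 0.0274) and by 1.12 in wild-type hearts (SE 0.24, adjusted p = 0.0432, edgeR quasi-likelihood test). Fhl1 was at 92.1, 116, 109 and 135 CPM in knockout hearts at 15 months, against 50.9, 51.5 and 63.6 CPM in knockout hearts at 2 months, a rise of 1.03 on the log2 scale (SE 0.22, adjusted p = 0.0332, edgeR quasi-likelihood test). In wild-type hearts Fhl1 was at 151, 79.0, 114 and 145 CPM at 15 months, against 82.8, 53.0 and 80.1 CPM at 2 months, a log2 fold change of 0.76 (SE 0.22, adjusted p = 0.0949, edgeR quasi-likelihood test). Wild-type replicate 2 at 15 months lay among the young wild-type hearts, whereas the knockout ages did not overlap for Fhl1. The difference between genotypes in the age effect had a p of 0.877 for Myoz2 and 0.400 for Fhl1 before adjustment in the edgeR quasi-likelihood test and passed for neither.

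Both calls in knockout hearts were lost in some fits without 1 library. Leaving out any 1 of the 3 young knockout hearts, or knockout replicate 2, 3 or 4 at 15 months, gave adjusted p-values between 0.0634 and 0.137 for Myoz2 and between 0.0733 and 0.166 for Fhl1 (edgeR quasi-likelihood test). In those fits 0.303% to 0.755% of all genes passed, against 2.25% with all hearts. Whichever library was left out, the knockout log2 fold change stayed between −1.37 and −1.03 for Myoz2 and between 0.93 and 1.14 for Fhl1. The wild-type call of Myoz2 was lost without wild-type replicate 2 or 3 at 2 months (0.199 and 0.130), and without any wild-type heart at 15 months (0.0503 to 0.146, edgeR adjusted p). It was also lost without any knockout heart at 2 months or knockout replicate 2 or 4 at 15 months (0.0569 to 0.0688), while its log2 fold change there stayed between −1.12 and −1.11. Without knockout replicate 1 at 15 months, 11 members passed in knockout hearts, where 22.6% of all genes did, and 3 in wild-type hearts, where 5.1% of all genes did. With wild-type replicate 1 at 2 months left out, each genotype had 3, beside 3.62% of all genes in knockout hearts and 3.19% in wild-type hearts.

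**Figure D3:**
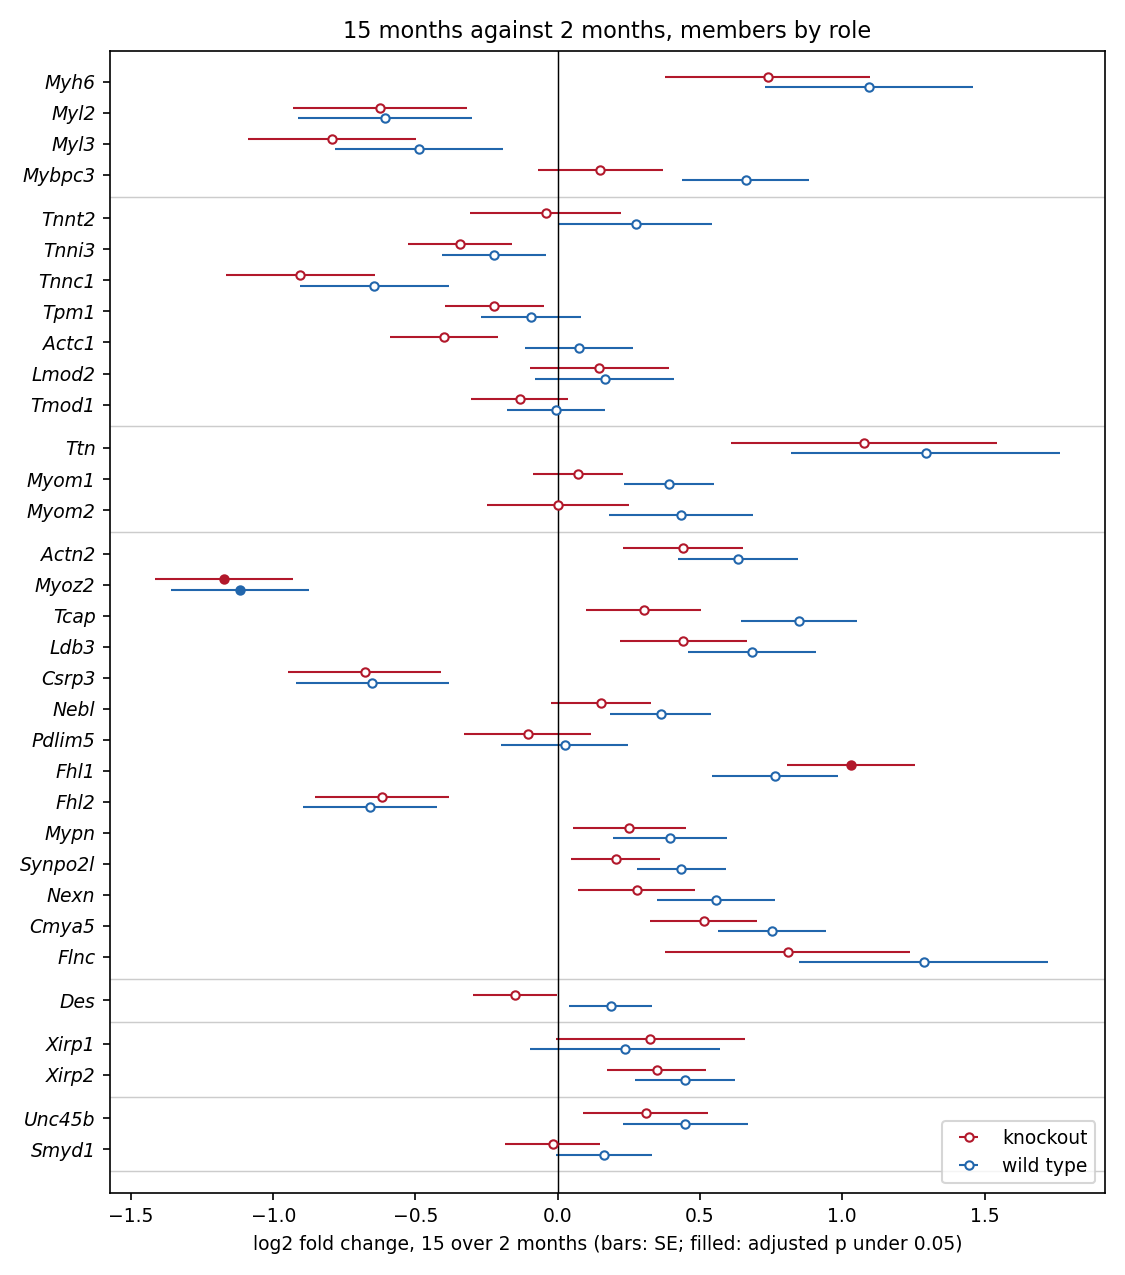
Log2 fold change of each gene, 15 over 2 months, in knockout (red) and wild-type (blue) hearts, with bars of 1 SE from the edgeR fit, genes grouped by role, and filled points for an adjusted p under 0.05. Filled points are Myoz2 in both genotypes and Fhl1 in knockout hearts, and the longer genes Ttn and Flnc lie furthest right in wild-type hearts.

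Since the age effects of the genotypes were not told apart by test, a contrast over both genotypes, each weighted equally, was added after the data were seen. In it 15 of 33 members (45.5%) passed (edgeR quasi-likelihood test, Benjamini-Hochberg adjusted), where 23.9% of all genes passed. The 10 members that rose were 30.3% of the list, against 10.8% of all genes, and the 5 that fell were 15.2%, against 13.1% of all genes. The median log2 fold change was 0.23 over the members and 0.00 over all genes, and 22 members were above 0 and 11 below, where 50.1% of all genes were above 0. At an unadjusted p under 0.05 there were 21 members, against 39.2% of all genes. No member had all 8 hearts of one age apart from all 6 of the other, where 1.86% of all genes were wholly higher and 1.4% wholly lower at 15 months.

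In the thick filament, Myh6 rose and Myl3 fell. Myh6 was at 8885, 17244, 16156 and 16284 CPM in knockout hearts at 15 months, against 4929, 11578 and 9823 CPM in knockout hearts at 2 months. In wild-type hearts Myh6 was at 18373, 12238, 18006 and 12645 CPM at 15 months, against 11204, 6165 and 4153 CPM at 2 months. The wild-type ages did not overlap, and knockout replicate 1 was the one old knockout heart within the young range. The rise was 0.92 on the log2 scale (SE 0.26, adjusted p = 0.0223, edgeR quasi-likelihood test), or 1.89-fold. Myl3 fell by 0.64 (SE 0.21, adjusted p = 0.0388, edgeR), and the other ventricular light chain Myl2 had a log2 fold change of −0.62 with an adjusted p of 0.0509 (edgeR). Myl2 was at 9267, 5094, 4409 and 6032 CPM in knockout hearts at 15 months against 10126, 8524 and 10037 CPM at 2 months, and at 5271, 8428, 5691 and 5903 CPM in wild-type hearts at 15 months against 5259, 13793 and 9871 CPM at 2 months, with overlap in both genotypes. Mybpc3 gave 0.41 and did not pass. The light chains were opposite in sign to the heavy chain in this fit, but with the length slope described further on as a covariate Myl2 gave 0.07 and Myl3 −0.04.

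In the thin filament 1 of 7 members passed. Tnnc1, the calcium-binding troponin of cardiac and slow muscle, was at 1488, 864, 697 and 908 CPM in knockout hearts at 15 months, against 1969, 1721 and 1866 CPM in knockout hearts at 2 months. In wild-type hearts Tnnc1 was at 956, 1408, 924 and 971 CPM at 15 months, against 1088, 2048 and 1858 CPM at 2 months. The knockout ages did not overlap, while wild-type replicate 1 at 2 months lay inside the old wild-type range. Tnnc1 fell by 0.77 on the log2 scale (SE 0.18, adjusted p = 0.0126, edgeR quasi-likelihood test), to 0.584 of its level at 2 months. The other six had log2 fold changes between −0.28 (Tnni3) and 0.16 (Lmod2), so the 3 troponin subunits did not share a size: Tnnt2 gave 0.12.

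Ttn rose. It was at 14034, 22862, 53244 and 38495 CPM in knockout hearts at 15 months, against 11113, 20146 and 14515 CPM in knockout hearts at 2 months. In wild-type hearts Ttn was at 47572, 11658, 21774 and 35982 CPM at 15 months, against 14192, 10699 and 10930 CPM at 2 months. The rise was 1.18 on the log2 scale (SE 0.33, adjusted p = 0.0224, edgeR quasi-likelihood test), or 2.27-fold, but knockout replicate 1 and wild-type replicate 2 at 15 months were within the range of young hearts. Both myomesins were above 0, with 0.23 for Myom1 and 0.22 for Myom2, and neither passed.

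Among 14 Z-disc genes, 7 rose, 3 fell and 4 did not pass, with a median log2 fold change of 0.37. Myoz2 fell by 1.14 on the log2 scale (SE 0.17, adjusted p = 0.00152, edgeR quasi-likelihood test), to 0.452 of its level at 2 months. Fhl2, a LIM-only protein of the Z-disc and the titin spring, was at 991, 653, 676 and 935 CPM in knockout hearts at 15 months, against 1193, 1136 and 1414 CPM in knockout hearts at 2 months, and the ages did not overlap. In wild-type hearts Fhl2 was at 902, 813, 583 and 786 CPM at 15 months, against 781, 1266 and 1608 CPM at 2 months, where replicate 1 alone overlapped the old hearts. Fhl2 fell by 0.64 (SE 0.17, adjusted p = 0.0175) and Csrp3 by 0.67 (SE 0.19, adjusted p = 0.0242, edgeR quasi-likelihood test). Csrp3 was at 859, 462, 416 and 610 CPM in knockout hearts at 15 months against 996, 817 and 1005 CPM at 2 months, and at 627, 904, 589 and 719 CPM in wild-type hearts at 15 months against 687, 1249 and 1410 CPM at 2 months. Knockout replicate 1 and wild-type replicates 2 and 4 at 15 months overlapped the lowest young hearts of their genotype for Csrp3.

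The 7 that rose were Fhl1, Cmya5, Tcap, Actn2, Ldb3, Flnc and Synpo2l. Fhl1 rose by 0.90 (SE 0.16, adjusted p = 0.00380, edgeR quasi-likelihood test), while its relative Fhl2 fell. Cmya5 was at 1090, 1393, 1583 and 1504 CPM in knockout hearts at 15 months against 803, 1112 and 1013 CPM at 2 months, and at 1938, 1585, 1303 and 1473 CPM in wild-type hearts at 15 months against 1018, 786 and 1000 CPM at 2 months. Only knockout replicate 1 at 15 months lay below a young heart, and Cmya5 rose by 0.63 (SE 0.13, adjusted p = 0.00816, edgeR). Tcap was at 832, 720, 733 and 893 CPM in knockout hearts at 15 months against 471, 639 and 824 CPM at 2 months, and at 1009, 1294, 866 and 823 CPM in wild-type hearts at 15 months against 505, 537 and 622 CPM at 2 months. Wild-type ages did not overlap for Tcap, a single young knockout heart reached the old range, and the rise was 0.57 (SE 0.14, adjusted p = 0.0149, edgeR). Actn2 was at 991, 1527, 1636 and 1621 CPM in knockout hearts at 15 months against 875, 1207 and 1110 CPM at 2 months, and at 1802, 1113, 1376 and 1411 CPM in wild-type hearts at 15 months against 994, 789 and 972 CPM at 2 months, a rise of 0.54 (SE 0.15, adjusted p = 0.0213, edgeR). ZASP (Ldb3), a PDZ-LIM scaffold on alpha-actinin, was at 581, 858, 927 and 950 CPM in knockout hearts at 15 months against 524, 701 and 606 CPM at 2 months, and at 1046, 530, 810 and 832 CPM in wild-type hearts at 15 months against 536, 440 and 527 CPM at 2 months, a rise of 0.56 (SE 0.16, adjusted p = 0.0224, edgeR). For Actn2 and Ldb3 the lowest old hearts were again knockout replicate 1 and wild-type replicate 2.

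Filamin C (Flnc), an actin crosslinker known for its part in sarcomere repair, was at 160, 349, 578 and 539 CPM in knockout hearts at 15 months against 171, 268 and 257 CPM at 2 months, and at 749, 210, 351 and 596 CPM in wild-type hearts at 15 months against 191, 153 and 242 CPM at 2 months. Flnc rose by 1.05 (SE 0.31, adjusted p = 0.0262), and Synpo2l, a Z-disc partner of alpha-actinin, by 0.32 (SE 0.11, adjusted p = 0.0486, edgeR quasi-likelihood test). The remaining Z-disc genes did not pass, with log2 fold changes of 0.42 for nexilin (Nexn), 0.32 for Mypn, 0.26 for nebulette (Nebl) and −0.04 for the PDZ-LIM gene Pdlim5. Outside the Z-disc, Xirp2 was at 1567, 1281, 1262 and 1502 CPM in knockout hearts at 15 months against 1056, 1180 and 1071 CPM at 2 months, and at 1592, 1644, 1151 and 1596 CPM in wild-type hearts at 15 months against 888, 1081 and 1321 CPM at 2 months. It rose by 0.40 (SE 0.12, adjusted p = 0.0326, edgeR), and only in wild-type hearts did the ages overlap. Xirp1 gave 0.28, Unc45b 0.38, Smyd1 0.07 and Des 0.02, and none of these passed.

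**Figure D4:**
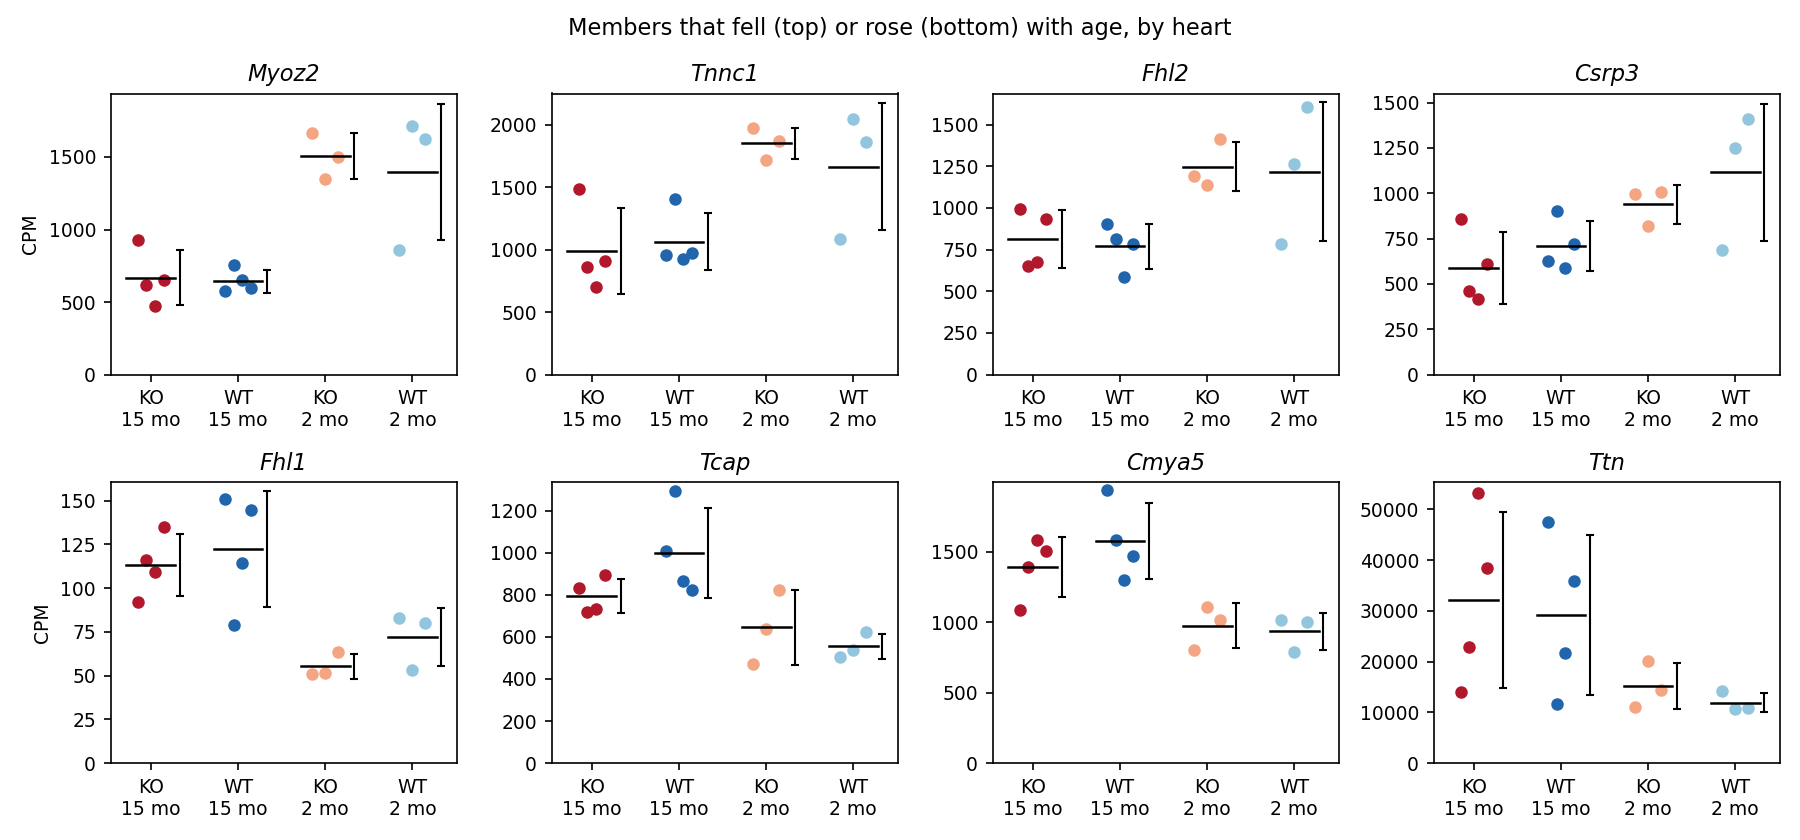
CPM in each heart for 4 genes that fell (top) and 4 that rose (bottom) between 2 and 15 months over both genotypes, with each group's mean (line) and 1 SD (bar beside it) and axes that start at 0. Knockout hearts stand left of wild-type hearts at each age, and the 2 genotypes share the direction in all 8 genes. These genes were picked from those past the test over both genotypes, so the shared direction is no separate result.

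The calls differed in how far they rested on single hearts. In GRCm38 coordinates Myoz2 lies at chr3:123006206-123035015, Fhl1 at chrX:56731787-56793346, Cmya5 at chr13:93040713-93144724, Tnnc1 at chr14:31208312-31211729 and Tcap at chr11:98383811-98384953. These 5 genes passed whichever of the 14 libraries was left out, and their highest adjusted p-values were 0.00656, 0.0164, 0.0290, 0.0404 and 0.0445 (edgeR quasi-likelihood test). Fhl2 passed in 13 of 14 such fits, failing without wild-type replicate 3 at 2 months (edgeR adjusted p = 0.0525), and Actn2 passed in 12. Myh6 and Ldb3 passed in 11, Ttn in 10, Csrp3 and Flnc in 8, Xirp2 in 7, Myl3 in 4 and Synpo2l in 3. The count of 15 members became 6 without knockout replicate 1 (9.47% of all genes) or wild-type replicate 2 (10.3%) at 2 months, 8 without knockout replicate 3 at 2 months (12.9%), and 20 without knockout replicate 1 at 15 months (35.8%). Without wild-type replicate 1 at 2 months, the heart with atrial transcripts, it was 15 (27.6%).

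Promoter sequence was available for 29 of the 33 genes, as 41 windows of 300 bases that run from 250 bases before to 50 after a RefSeq start (GRCm38.p6), and Xirp1, Nexn, Tcap and Myom2 had none. A pair of motifs of muscle promoters was more frequent in these windows than in all 32851 windows: a MEF2 motif stood in 17.1% of the members' windows and 3.19% of all, and a CArG box, the site shape of serum response factor, in 22.0% of the members' windows and 1.63% of all. The TATA box, searched as TATAAA, stood in 19.5% of the members' windows and 13.6% of all, and the M-CAT motif, searched as CATTCC, in 26.8% and 14.7%. All were searched on both strands, matches of different motifs overlapped in 1 member window, a gene with several starts counted once per window (the 9 windows with a CArG box belong to 7 genes, and both windows of Ldb3 hold the same site), and a match describes letters and not a bound site. Windows of Myoz2 and Fhl2, which fell, and of Fhl1 and Ldb3, which rose, are shown 5′ to 3′, with every motif match in capitals. They belong to the 2 genes of each direction with the smallest age p among those whose windows hold a MEF2 motif or a CArG box, and second windows of Fhl2 and Ldb3 are left out.
Myoz2 (chr3:123034938-123035237, minus strand): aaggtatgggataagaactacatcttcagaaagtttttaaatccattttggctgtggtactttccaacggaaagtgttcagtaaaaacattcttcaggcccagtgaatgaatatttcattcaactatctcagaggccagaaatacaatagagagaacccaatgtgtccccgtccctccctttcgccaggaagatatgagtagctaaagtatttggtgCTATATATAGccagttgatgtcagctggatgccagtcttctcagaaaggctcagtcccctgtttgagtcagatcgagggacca
Fhl2 (chr1:43196712-43197011, minus strand): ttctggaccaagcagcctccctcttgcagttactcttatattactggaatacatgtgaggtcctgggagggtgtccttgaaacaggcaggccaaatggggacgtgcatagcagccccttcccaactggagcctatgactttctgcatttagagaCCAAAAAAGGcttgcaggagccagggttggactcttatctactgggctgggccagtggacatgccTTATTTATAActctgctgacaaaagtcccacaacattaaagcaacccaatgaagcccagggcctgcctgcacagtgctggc
Fhl1 (chrX:56779433-56779732, plus strand): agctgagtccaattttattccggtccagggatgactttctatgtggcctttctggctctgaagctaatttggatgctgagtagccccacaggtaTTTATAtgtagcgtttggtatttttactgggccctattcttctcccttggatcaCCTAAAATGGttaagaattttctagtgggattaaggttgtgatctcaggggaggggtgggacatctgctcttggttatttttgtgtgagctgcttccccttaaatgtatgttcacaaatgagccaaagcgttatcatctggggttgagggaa
Ldb3 (chr14:34588632-34588931, minus strand): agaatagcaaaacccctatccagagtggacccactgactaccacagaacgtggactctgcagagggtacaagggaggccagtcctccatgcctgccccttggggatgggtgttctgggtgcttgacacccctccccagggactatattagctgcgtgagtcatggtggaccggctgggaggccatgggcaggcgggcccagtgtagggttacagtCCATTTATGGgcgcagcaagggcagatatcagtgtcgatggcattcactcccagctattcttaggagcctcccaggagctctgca
The capitals in Myoz2 are a MEF2 motif that begins at base −33 from the start. In Fhl2 a CArG box begins at −96 and a MEF2 motif that contains a TATA box at −31. In Fhl1 a TATA box begins at −156 and a CArG box at −102, and in Ldb3 a CArG box begins at −35. The TATA box matches in Fhl2 and Fhl1 read TTTATA as shown, so their TATAAA lies on the opposite strand. The windows shown were picked, in each direction, for holding a MEF2 motif or a CArG box. Whether the motifs went with the direction of the age change was therefore not tested. Among the members a CArG box was also found in Actc1, Myl3, Myom1 and Nebl.

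The length of a gene moved with these age values. For each library a length slope was computed, the change of log2 CPM relative to the mean of all libraries per doubling of exon length, over all genes tested. It was −0.0916, 0.164, 0.235 and 0.0904 in knockout hearts at 15 months, against −0.136, −0.0432 and −0.111 in knockout hearts at 2 months. In wild-type hearts it was 0.117, −0.0744, 0.101 and 0.0469 at 15 months, against −0.0105, −0.177 and −0.110 at 2 months. The 2 old hearts with a negative slope, knockout replicate 1 and wild-type replicate 2, were the ones that lay among the young hearts for Ttn, Actn2, Ldb3 and Flnc. Of the 16 members with exons longer than the median of 4493 bp, 14 had a log2 fold change above 0 over both genotypes, with a median of 0.30. Of the other 17 members 8 were above 0, with a median of −0.07.

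With the length slope as a covariate in the edgeR fit, 3 of 33 members (9.09%) passed in place of 15, and 1.38% of all genes in place of 23.9%. Tcap gave a log2 fold change of 0.74 and Xirp2 0.58, both higher at 15 months, and Myoz2 −0.63. Ttn then gave 0.12, Flnc 0.04, Myh6 0.29, Tnnc1 −0.20 and Fhl1 0.57, and none of them passed. For 8 members, none of them among the 15, the sign turned: Myl2 gave 0.07, Mybpc3 −0.07, Unc45b −0.15, Mypn −0.06, Myom2 −0.15, Xirp1 −0.56, Smyd1 −0.17 and Des −0.18. Tcap has the shortest exons of the list (948 bp) and rose in both fits, and Myoz2 (3423 bp) fell in both. The slope and the age of the hearts moved together, and the part of either in the other 12 calls was not tested.

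**Figure D5:**
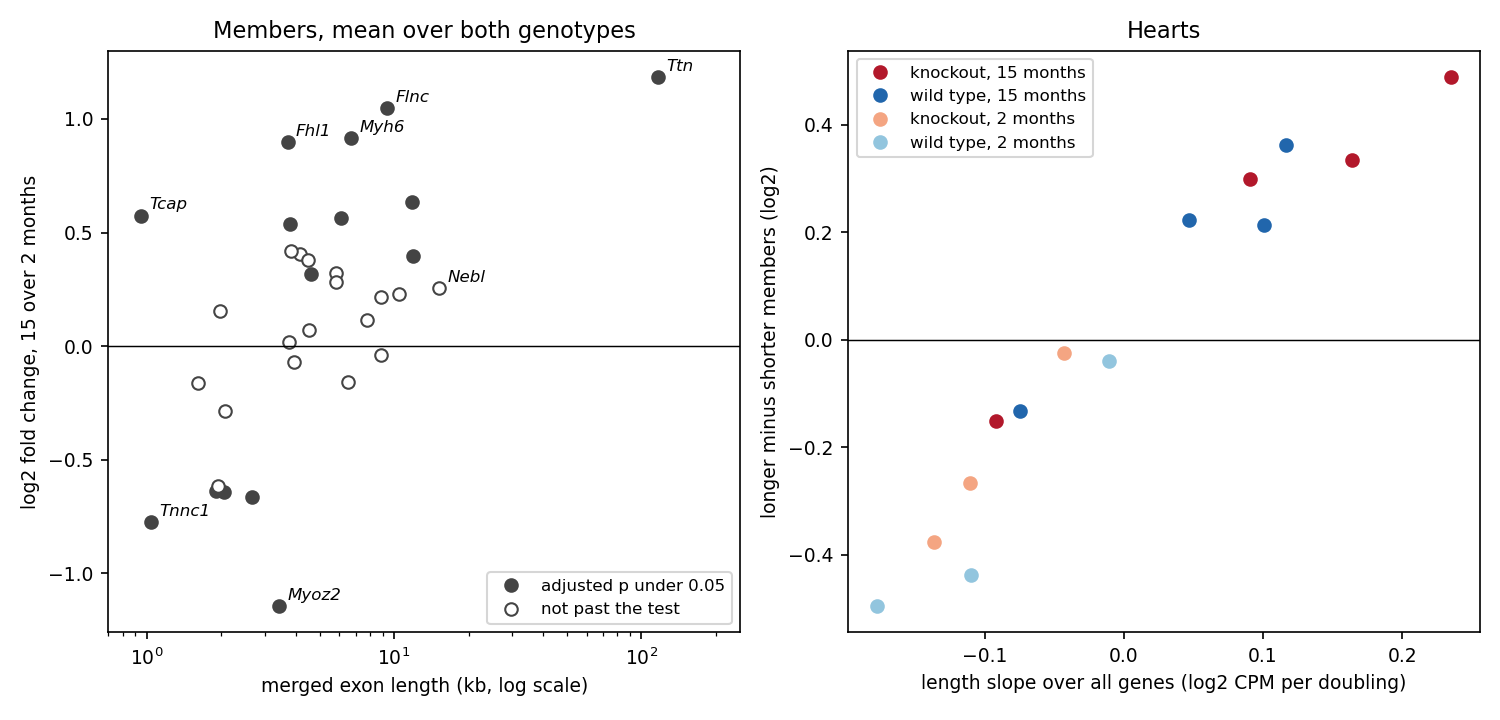
Left, log2 fold change of each gene at 15 over 2 months, mean of both genotypes, against merged exon length on a log axis, with filled points for an adjusted p under 0.05. Right, for each heart, the mean deviation in log2 CPM of the 16 longer minus the 17 shorter genes against the length slope over all genes tested, where 6 of 8 hearts at 15 months lie above 0 on both axes and the 6 hearts at 2 months below.

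Markers of other cell types were summed per heart beside the age comparison. Of 14 skeletal muscle genes 7 were tested, and the fast myosin Myh4 was at 0 in all hearts. The 14 genes summed to 1145 to 1244 CPM in knockout and 1341 to 1517 CPM in wild-type hearts at 15 months, against 1666 to 1819 CPM in knockout and 1528 to 1885 CPM in wild-type hearts at 2 months. Most of that sum was Ckm, which the heart also expresses, at 1016 to 1347 CPM at 15 months and 1191 to 1542 CPM at 2 months. The 12 fibroblast genes summed to 1126 to 1949 CPM in knockout and 753 to 1571 CPM in wild-type hearts at 15 months, against 1075 to 1327 CPM in knockout and 1022 to 2742 CPM in wild-type hearts at 2 months. The 12 endothelial genes summed to 931 to 1978 CPM in knockout and 920 to 1182 CPM in wild-type hearts at 15 months, against 984 to 1154 CPM in knockout and 858 to 1063 CPM in wild-type hearts at 2 months. The 12 macrophage genes summed to 233 to 279 CPM in knockout and 213 to 339 CPM in wild-type hearts at 15 months, against 267 to 364 CPM in knockout and 404 to 456 CPM in wild-type hearts at 2 months. The 15 atrial genes summed to 464 to 719 CPM in knockout and 580 to 944 CPM in wild-type hearts at 15 months. At 2 months they summed to 821 to 834 CPM in knockout and 735 to 3206 CPM in wild-type hearts. The ages were thus apart in knockout hearts. Most of each knockout sum was Pam, at 369 to 491 CPM at 15 months and 605 to 630 CPM at 2 months. Nppa was also lower in knockout hearts at 15 months (4.59 to 31.0 CPM, against 116 to 146 CPM). Myl7 reached 58.1 CPM in knockout replicate 1 at 15 months, against at most 0.303 CPM in knockout hearts at 2 months. The sum therefore does not stand for each atrial gene. Fat cell genes summed to 291 to 511 CPM in knockout and 263 to 453 CPM in wild-type hearts at 15 months. At 2 months they summed to 431 to 659 CPM in knockout and 390 to 605 CPM in wild-type hearts. Most of each fat cell sum was Fabp4, a gene that the endothelial list also holds. Fabp4 was at 254 to 502 CPM at 15 months and 343 to 648 CPM at 2 months. Smooth muscle and mural genes summed to 1194 to 1845 CPM in knockout and 1075 to 1613 CPM in wild-type hearts at 15 months, against 1373 to 1504 CPM in knockout and 1406 to 1506 CPM in wild-type hearts at 2 months. The largest part was Rgs5. Mean Acta2 was lower at 15 months (knockout 52.4 against 130 CPM, wild type 63.1 against 123 CPM). Mean Myh11 was higher (knockout 29.2 against 13.7 CPM, wild type 30.6 against 22.2 CPM). The ventricular markers summed to 980 to 1371 CPM in knockout and 1067 to 1383 CPM in wild-type hearts at 15 months, with the values at 2 months given above. The part of these lists in the members' values was not tested.

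A further 50 sarcomere genes that are not members were counted for comparison, of which 43 were tested. Between genotypes 0 of 43 passed in each of the comparisons (edgeR quasi-likelihood test, Benjamini-Hochberg adjusted). At 15 months the smallest p-values belonged to the muscle RING-finger gene Trim54 (log2 fold change −0.38) and to Acta1 (−1.16). At 2 months they belonged to the atrial genes Mybphl and Myl4, both at −6.81, which rested on wild-type replicate 1: without it they gave −0.08 and 0.41. Over both ages they belonged to Mybphl and Acta1, and for the difference of knockout effects to Trim54 (−0.53) and leiomodin 3 (Lmod3, −0.61).

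With age, 9 of 43 further genes (20.9%) rose over both genotypes, against 10.8% of all genes, and 6 (14%) fell, against 13.1% of all genes. Myotilin (Myot), a Z-disc partner of filamin C, was at 47.9, 22.1, 59.6 and 55.5 CPM in knockout hearts at 15 months, against 6.77, 9.53 and 10.5 CPM in knockout hearts at 2 months. In wild-type hearts Myot was at 78.1, 46.7, 37.2 and 77.4 CPM at 15 months, against 14.2, 10.98 and 24.7 CPM at 2 months. Within each genotype the ages were apart, and it rose by 2.37 in knockout hearts (SE 0.38, adjusted p = 0.00696) and by 1.84 in wild-type hearts (SE 0.37, adjusted p = 0.0320, edgeR quasi-likelihood test). Trim54 was at 79.9, 87.6, 98.2 and 88.6 CPM in knockout hearts and 128, 124, 112 and 97.7 CPM in wild-type hearts at 15 months, against 54.5, 70.1 and 73.3 CPM in knockout hearts and 57.5, 59.2 and 61.4 CPM in wild-type hearts at 2 months. All 8 old hearts were above all 6 young hearts, and Trim54 rose by 0.96 in wild-type hearts (SE 0.14, adjusted p = 0.00440, edgeR), a call kept in every alternative run. In knockout hearts Lrrc10, a cardiac protein of the Z-disc region, fell by 1.06 (adjusted p = 0.0456, edgeR). The nebulin-related anchoring gene Nrap (0.80), Tnni2 (−1.57) and Pdlim7 (−0.48) passed over both genotypes, as did Myh7 (1.77, SE 0.53, adjusted p = 0.0304, edgeR), which was at 589, 668, 366 and 273 CPM in knockout hearts at 15 months, against 42.8, 230 and 194 CPM in knockout hearts at 2 months. In wild-type hearts Myh7 was at 176, 389, 921 and 174 CPM at 15 months, against 203, 95.9 and 26.8 CPM at 2 months, and these overlapped.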

How the data were processed

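Whole-heart RNA of 14 mice was sequenced from stranded libraries after ribosomal RNA depletion, per the labels' protocols. The authors deposited raw read counts per gene for each heart. The submitters' processing notes name the build GRCm38 and, as tools, DESeq2 1.26.0, featureCounts 1.6.3, cutadapt 1.16 and STAR 2.7.3a. How multi-mapping reads were treated, which strand setting was used and which annotation was counted is not given in the sources used here.

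From these counts, genes were kept by filterByExpr (minimum count 10, minimum total 15), which left 15528 of 55487, and scaled by TMM. The 4 groups shared one quasi-likelihood fit in edgeR 4.0.16 under R 4.3.3, with Benjamini-Hochberg adjustment over all genes tested, a threshold of 0.05 and no covariate. Standard errors were the log2 fold change divided by the root of the F statistic. The fit was tested on simulated data. Alternatives included DESeq2 1.42.0 and limma 3.58.1 with voom. Merged exon lengths came from GENCODE M21 (55227 identifiers matched). Pairs of libraries in a group differed beyond sampling noise, with a chi-square per degree of freedom of 30.2 or more.

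The 33 members and all gene lists were chosen with earlier results of these data known. Genes were named by a rule: members past the threshold (at most 10 by smallest p) or, where none passed, the 6 with the smallest p, the highest member per kilobase in each role, Sqstm1, Myh6, Myh7, Ttn, Actn2, Des, Flnc, Xirp2 and Csrp3, and up to 6 other sarcomere genes past the threshold, or the 2 with the smallest p. The contrast over both genotypes, with its alternatives, was added after the data were seen.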

Additional observations from a re-analysis of the deposited data

Results flagged for a closer look

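Of 90 groups of 4 hearts, 10 had a single heart far from the other three by Dixon's criterion, where chance flags about 1 in 20. In knockout replicate 1 at 15 months Myh6 was at 8885 CPM (others 16156 to 17244), Mybpc3 at 1197 CPM (1887 to 1905) and Actn2 at 991 CPM (1527 to 1636). The same heart had 39.6 CPM of Myl4 (others 0.904 to 1.72) and 2.21 CPM of Mybphl (others 0.0421 to 0.243), both atrial genes outside the list. In wild-type replicate 2 at 15 months Myl3 was at 4914 CPM (others 2530 to 2677) and Tnnc1 at 1408 CPM (924 to 971). In wild-type replicate 3 at 15 months Myom2 was at 1423 CPM (others 669 to 780) and Xirp2 at 1151 CPM (1592 to 1644). Sqstm1 was at 37.0 CPM in knockout replicate 2 at 15 months, against 14.6 to 17.6 CPM in the other knockout hearts of that age.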

How the results depend on the processing

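In both genotypes together the count of 15 members became 4 with the replicate number as a block, where 8.79% of all genes passed. It was 3 with the length slope as a covariate (1.38% of all genes) and 6 to 20 with 1 library left out (9.47% to 35.8%). In knockout hearts the age count of 2 became 0 under the block (0.451% of all genes) or the length slope (0.554%). It was 1 with only the groups compared, 4 by DESeq2 and 0 to 11 without 1 library (0.303% to 22.6%). In wild-type hearts the age count of 1 became 3 with no filter on low counts, 10 by DESeq2, and 0 to 3 without 1 library (0.236% to 5.1%). It was 0 under the block (0.354%), with only the groups compared or by limma voom. Where no share of all genes is given beside a count, the members cannot be set against all genes. Correlations between hearts of the same replicate number, on deviations from group means, ran between −0.44 and 0.32. With groups of 3 or 4 hearts they cannot tell whether the numbers pair the hearts. With the length slope the median age effect was −0.113 in knockout hearts, 0.0802 in wild-type hearts and −0.0239 over both genotypes, and without 1 library the knockout median lay between −0.00735 and 0.195.

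Several values changed sign, some near 0 and some not: in knockout hearts the age effects of Ttn (1.08), Flnc (0.81) and Actn2 (0.44) did so with the length slope. Xirp2 at 2 months, knockout over wild type, was −0.00487 with RLE size factors, −0.00488 by DESeq2, −0.00497 with a mean CPM of at least 1, −0.00500 with only the groups compared, −0.00378 without mitochondrially encoded genes and −0.12 to 0.18 without 1 library. With the length slope, the knockout effect at 15 months was −0.17 for Ttn and −0.12 for Actn2, the effect over both ages −0.0234 for Des and −0.162 for Flnc, the age effect in knockout hearts −0.11 for Ttn, −0.0518 for Actn2 and −0.322 for Flnc, and the age effect over both genotypes −0.18 for Des, as 1 of 8 members that turned there. The difference of knockout effects was then 0.0777 for Csrp3 and −0.0475 for Sqstm1, which limma voom put at −0.0227. The cause of these changes was not tested.

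Without 1 library, the knockout effect at 15 months ran between −0.0836 and 0.162 for Actn2, −0.476 and 0.0750 for Flnc, −0.16 and 0.11 for Myh6, −0.0606 and 0.952 for Myh7, and −0.22 and 0.47 for Ttn, and Myl4 at 2 months between −7.38 and 0.41. Over both ages it ran between −0.0166 and 0.0587 for Des, −0.113 and 0.163 for Flnc, −0.0134 and 0.358 for Myh6, and −0.103 and 0.0454 for Xirp2. The difference of knockout effects ran between −0.27 and 0.22 for Csrp3, −1.16 and 0.43 for Myh7, −0.34 and 0.21 for Sqstm1, −0.58 and 0.12 for Ttn, and −0.267 and 0.0300 for Xirp2. The age effect ran between −0.0235 and 0.524 for Sqstm1 in knockout hearts and −0.00994 and 0.0629 for Des over both genotypes. As TPM the levels were 7111 for Myl2, 6069 for Actc1, 1557 for Tcap, 642 for Des, 402 for Ttn, 206 for Xirp2 and 156 for Smyd1. Groups of 3 and 4 hearts, and not counting depth, limit these comparisons.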
